A study of Mus musculus with 23 samples.

Results

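The genes described are 10 alpha- and beta-tubulin isotypes of the mouse, taken from the 55401 genes of the deposited count table by matching its Ensembl identifiers to the symbols Tubb2a, Tubb2b, Tubb3, Tubb4b, Tubb5, Tubb6, Tuba1a, Tuba1b, Tuba1c and Tuba4a. All 10 were found and all 10 passed the filter on low counts. The study grew flank tumours from TC2Ras, a mouse prostate adenocarcinoma line made by transducing TRAMP-C2 cells with a lentivirus that carries an activated Ras, in male C57BL/6 mice aged 8 to 10 weeks. A plasmid was delivered to the tibialis anterior muscle by ultrasound and microbubbles (sonoporation), at 10 µg per muscle. It was either pTSTA-IL27pepL, which encodes the cytokine IL-27 with a short peptide tag (IL27v), or the empty pTSTA-ctrl (EV). Tumour pieces were then exposed outside the animal to docetaxel, cabozantinib, cabozantinib with IL-27, anti-PD-L1, IL-27, or media. These 6 exposures under 2 vectors make 12 groups. There were 11 IL27v and 12 EV libraries, 2 in each group but for a group with 1, the IL27v pieces given IL-27. The labels name no ex vivo dose or time. They also do not tell whether the replicates are different animals or tumours, so every p-value reflects library-to-library spread alone, and that spread may be technical.

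Microtubules are polymers of alpha- and beta-tubulin heterodimers, each encoded by several genes whose products, the isotypes, differ mainly near the C-terminal end. Docetaxel is a taxane: it binds beta-tubulin inside the polymer, stabilises it and blocks mitosis, and it is in clinical use against prostate cancer. Cells also adjust tubulin messenger RNA to the pool of free dimers. In this autoregulation, worked out in cultured mammalian cells, TTC5 binds the first residues of a tubulin chain as it leaves the ribosome and, through SCAPER and the CCR4-NOT deadenylase, starts decay of the messenger. High levels of the neuronal isotype TUBB3 in human tumours have been associated with taxane resistance.

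The first 24 coding bases are shown because the autoregulation signal lies in the opening codons. Capitals mark the first 12 bases, which are 4 codons. The sequences were read from the GRCm38 genome at the annotated start codon of each gene, and that of Tubb6 is not shown.
Tubb2a: ATGCGCGAGATCgtgcacatccag
Tubb2b: ATGCGAGAGATCgtgcacattcag
Tubb3: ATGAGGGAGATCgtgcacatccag
Tubb4b: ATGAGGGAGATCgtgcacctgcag
Tubb5: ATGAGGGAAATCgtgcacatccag
Tuba1a: ATGCGTGAGTGCatctccatccat
Tuba1b: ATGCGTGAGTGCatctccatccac
Tuba1c: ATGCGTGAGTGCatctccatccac
Tuba4a: ATGCGCGAGTGCatttcagtccat
The 12-base start was identical in Tuba1a, Tuba1b and Tuba1c and identical in Tubb3 and Tubb4b. Each of the other 4 genes shown had a start of its own. Within each family these differences were synonymous. All beta starts shown read Met-Arg-Glu-Ile, and all alpha starts read Met-Arg-Glu-Cys. Tuba1b and Tuba1c had the same 24 bases.

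The isotypes are close copies, which bears on how far the deposited counts separate them. Over the coding sequence Tubb2a and Tubb2b were 96.5% identical, and Tuba1a was 98.3% identical to Tuba1b. Of all 100-base windows along the transcript, 52.3% in Tuba1b, 53.4% in Tuba1c and 38.4% in Tuba1a occurred in another gene of that trio. The share was 36.9% in Tubb2a and 27.7% in Tubb2b, which share windows with each other and with Tubb2a-ps2. It was 27.4% in Tubb4b, shared with the pseudogenes Tubb4b-ps1 and Tubb4b-ps2. No window of Tubb3, Tubb5, Tubb6 or Tuba4a was shared with another gene whose symbol starts with Tuba or Tubb. Genes under other names were not searched. How the authors' counting divided such reads is not given in the sources used here, so the values of Tubb2a against Tubb2b, and of Tuba1a, Tuba1b and Tuba1c against each other, are uncertain. The summed alpha and summed beta values below do not depend on how reads were divided within each family, though reads shared with the pseudogenes still bear on the beta sum.

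Library totals were 47641781 to 83088346 counts. Levels are in CPM, counts scaled to a common library size with TMM factors, which correct for composition, and 1 CPM stood for 36.3 to 86.5 counts. The 10 genes together took 0.267 to 0.649% of a library's counts. Libraries of the same exposure stood apart from each other. IL27v docetaxel 1 has 27.2% of its counts in the ribosomal RNA gene CT010467.1. By skeletal muscle and neutrophil transcripts the libraries also form sets: both EV docetaxel and both EV media libraries belong to the set with neither signal, the IL27v media libraries carry both, and IL27v docetaxel 2 carries muscle transcripts (915 CPM over 11 muscle genes). IL27v docetaxel 1 had 28.3 CPM over the muscle genes and was placed in no set. No IL27v docetaxel library thus shared a set with an IL27v media library. The list of TC2Ras tumour markers summed to 2665 to 6699 CPM, nearly all of it Vim, whereas the epithelial markers Epcam and Krt18 were at 0 to 18.7 and 0 to 2.51 CPM. In bulk RNA, fewer cells of a type and less RNA per cell cannot be told apart.

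The first comparison asks which tubulin transcripts changed when tumour pieces were exposed to docetaxel, set against media under the same vector. Averaged over both vectors, 4 of the 10 isotypes rose with docetaxel, all of them beta: Tubb2b, Tubb2a, Tubb6 and Tubb4b. None fell. With only the docetaxel and media libraries in the fit, or with additive models, none of the 4 passed. The edgeR adjusted p of Tubb2a, Tubb2b and Tubb6 was 0.0761, 0.0597 and 0.0624 in the smaller fit. With the library sets as a term it was 0.805 for each, at log2 fold changes of 1.79 ± 0.50, 1.98 ± 0.50 and 1.22 ± 0.38. Among all 24440 genes tested, 1.76% rose and 0.0286% fell. The median log2 fold change of the 10 isotypes was 1.08, against 0 over all genes tested, and the fold change was above 0 in all 10 under each vector, as it was in 27.8% of all genes. No alpha isotype passed the threshold of 0.05 on the adjusted p (edgeR quasi-likelihood test, Benjamini-Hochberg over all genes).

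Tubb2a and Tubb2b lie close to each other on chromosome 13 (GRCm38 34074274 to 34078007 and 34126748 to 34130466, both on the minus strand) and encode near-identical beta isotypes that are rich in neurons. Tubb2a (ENSMUSG00000058672) was at 91.1 and 122.8 CPM in IL27v docetaxel, against 11.6 and 37.9 CPM in IL27v media. In EV docetaxel it was at 44.2 and 75.8 CPM, against 23.4 and 17.95 CPM in EV media. Each docetaxel library was above every other library of its vector, where the highest were 48.8 CPM under IL27v and 34.2 CPM under EV. The log2 fold change over media was 1.83 ± 0.35 (SE; edgeR adjusted p = 0.0176). Tubb2b (ENSMUSG00000045136) was at 35.9 and 70.9 CPM in IL27v docetaxel, against 7.18 and 13.0 CPM in IL27v media, and at 22.6 and 45.4 CPM in EV docetaxel, against 13.4 and 7.17 CPM in EV media. Here too the docetaxel libraries did not overlap the others of their vector, whose highest values were 26.2 CPM under IL27v and 19.5 CPM under EV. Tubb2b had the largest mean change of the 10, at 2.06 ± 0.37 (edgeR adjusted p = 0.0125). Both calls rest on few libraries. Without EV media 1, EV media 2, EV docetaxel 2 or IL27v media 1, the edgeR adjusted p of Tubb2a was 0.150, 0.0895, 0.0860 and 0.0729, and that of Tubb2b 0.103, 0.0715, 0.0668 and 0.0735. Without IL27v docetaxel 1 that of Tubb2a was 0.0505.

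Tubb6 (ENSMUSG00000001473; chromosome 18, 67390717 to 67402749, plus strand) encodes a broadly expressed beta isotype whose transcript shares no window with the other Tuba and Tubb genes searched. It was at 611 and 596 CPM in IL27v docetaxel, against 61.2 and 186 CPM in IL27v media. EV docetaxel had 477 and 774 CPM, against 248 and 245 CPM in EV media. The docetaxel libraries were again the highest of their vector, and the log2 fold change over media was 1.81 ± 0.32 (edgeR adjusted p = 0.0116). Without EV media 1 the edgeR adjusted p was 0.121, and without EV media 2 it was 0.0570.

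Tubb4b (ENSMUSG00000036752; chromosome 2, 25222160 to 25224702, minus strand) encodes a widely expressed beta isotype that is also abundant in ciliated cells. It was at 376 and 438 CPM in IL27v docetaxel, against 99.4 and 252 CPM in IL27v media. It was at 275 and 422 CPM in EV docetaxel, against 157 and 134 CPM in EV media. Docetaxel was above media without overlap under both vectors, as in 8% of all genes. However, EV IL-27 1, at 419.6 CPM, and EV cabozantinib 1, at 302.2 CPM, stood above the lower EV docetaxel library. The log2 fold change was 1.24 ± 0.30 and lay just inside the threshold (edgeR adjusted p = 0.0456). The call did not survive the loss of any of 15 libraries out of 23, and the largest adjusted p, 0.222, came without EV media 1. A correction for GC content also ended it (0.88 ± 0.20, edgeR adjusted p = 0.0659).

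Tubb3 and Tubb5 did not pass. Tubb3 (ENSMUSG00000062380; chromosome 8, 123411424 to 123422015, plus strand) encodes the isotype used as a marker of neurons. It was at 72.7 and 48.6 CPM in IL27v docetaxel, against 7.53 and 34.1 CPM in IL27v media, and at 27.1 and 36.1 CPM in EV docetaxel, against 17.98 and 8.73 CPM in EV media. Its fold change had a wider error than that of Tubb4b (1.39 ± 0.43, edgeR adjusted p = 0.116). Tubb5 (ENSMUSG00000001525; chromosome 17, 35833921 to 35838306, minus strand) encodes the main beta isotype of most dividing cells. It was at 1386 and 1599 CPM in IL27v docetaxel, against 716 and 1335 CPM in IL27v media, and at 1581 and 1966 CPM in EV docetaxel, against 1344 and 995 CPM in EV media. Its log2 fold change was 0.57 ± 0.21 (edgeR adjusted p = 0.210). Leaving out IL27v media 2, so that 1 IL27v media library remained, brought Tubb3, Tubb5, Tuba1a and Tuba4a past the threshold (edgeR). Calls over all genes also varied widely with 1 library left out, as given in the closing section. Other settings lowered Tubb3, to 0.73 ± 0.31 with the GC correction (edgeR adjusted p = 0.400) and to 0.92 ± 0.45 without IL27v docetaxel 1 and IL27v media 1 (edgeR adjusted p = 0.639).

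Of the alpha isotypes, Tuba4a and Tuba1a came closest to the threshold. Tuba4a (ENSMUSG00000026202; chromosome 1, 75214228 to 75219865, minus strand) encodes an alpha chain made without the terminal tyrosine that enzymes remove from and restore to other alpha chains. It was at 131 and 155 CPM in IL27v docetaxel, against 59.6 and 86.3 CPM in IL27v media, and at 80.4 and 132 CPM in EV docetaxel, against 67.0 and 49.4 CPM in EV media (0.92 ± 0.25, edgeR adjusted p = 0.0720). Tuba1a (ENSMUSG00000072235; chromosome 15, 98949837 to 98953703, minus strand) encodes the main alpha isotype of developing neurons. It was at 575 and 971 CPM in IL27v docetaxel, against 371 and 601 CPM in IL27v media, so these groups overlapped. In EV docetaxel it was at 817 and 1188 CPM, against 523 and 415 CPM in EV media, with no overlap (mean of both vectors 0.88 ± 0.26, edgeR adjusted p = 0.0935).

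Tuba1b and Tuba1c, alpha isotypes found in most tissues, had the smallest fold changes of the 10. Tuba1b (ENSMUSG00000023004; chromosome 15, 98931425 to 98934565, minus strand) was at 1116 and 1200 CPM in IL27v docetaxel, against 828 and 1419 CPM in IL27v media. It was at 1104 and 1666 CPM in EV docetaxel, against 1108 and 922 CPM in EV media. The groups overlapped under both vectors, and the log2 fold change was 0.25 ± 0.23, with a 95% interval of -0.20 to 0.69 (edgeR adjusted p = 0.622). Tuba1c (ENSMUSG00000043091; chromosome 15, 99029891 to 99038110, plus strand) was at 777 and 731 CPM in IL27v docetaxel, against 455 and 767 CPM in IL27v media. EV docetaxel had 571 and 876 CPM, against 474 and 432 CPM in EV media (mean of both vectors 0.49 ± 0.22, edgeR adjusted p = 0.297). With the GC correction the mean changes of Tuba1b and Tuba1c were -0.17 and -0.05.

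**Figure D1:**
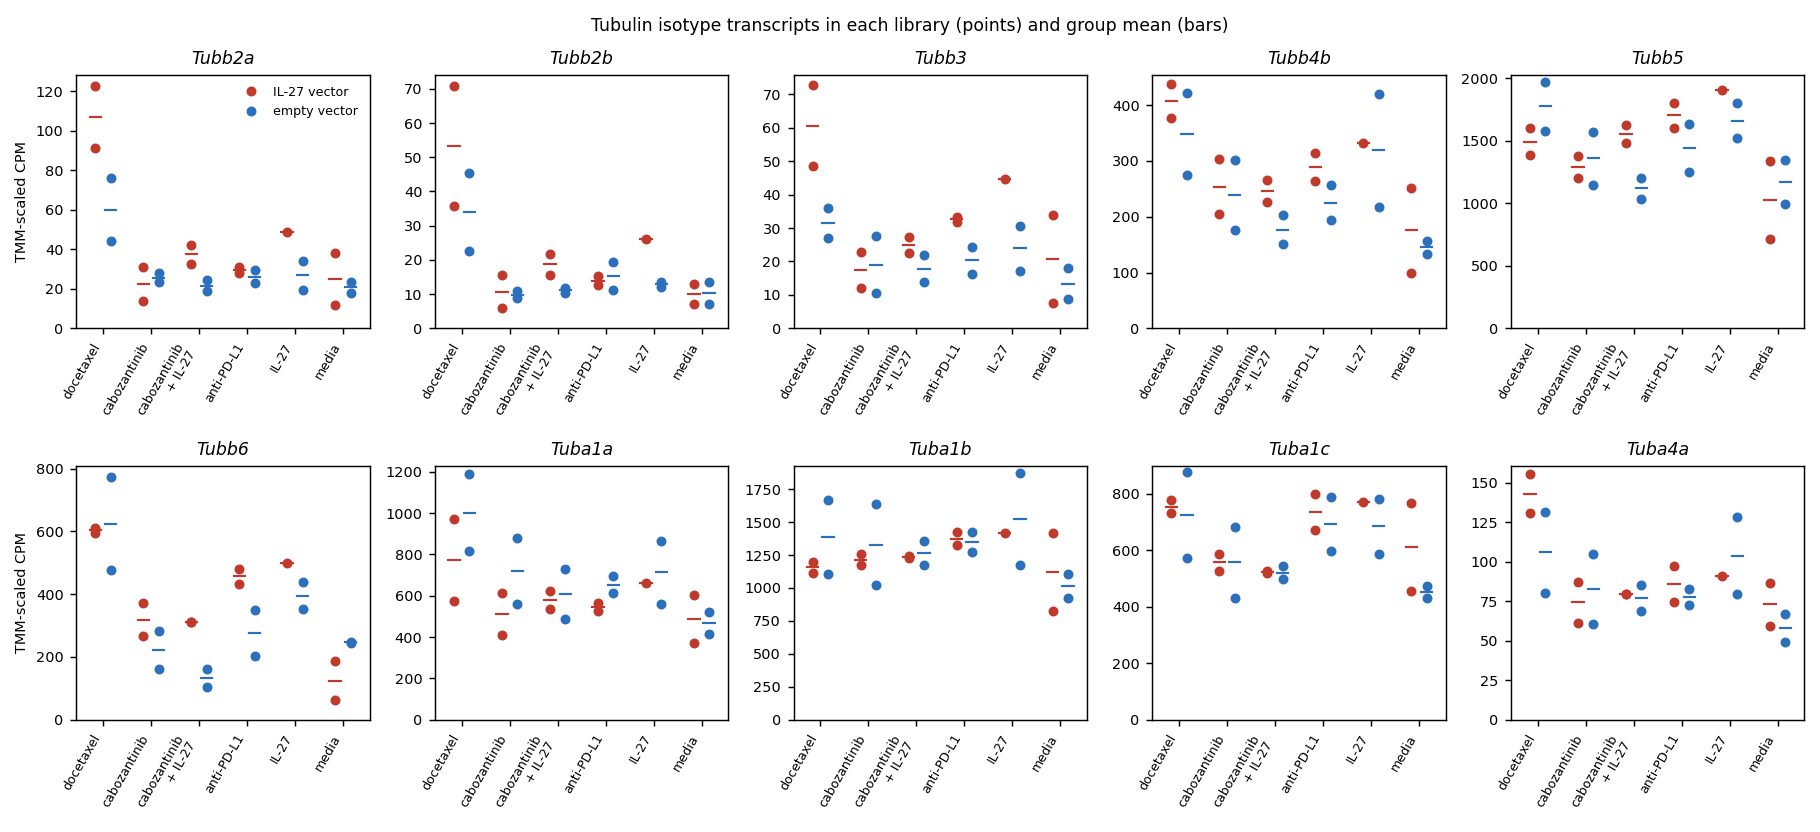
Transcript level of each isotype (vertical axis, TMM-scaled CPM, starting at 0) by ex vivo exposure, with a point per library and a short bar at the group mean; IL27v is in red and EV in blue. The docetaxel libraries of Tubb2a, Tubb2b and Tubb6 sit above all others of the same vector, with Tubb6 at 477 to 774 CPM, while those of Tuba1b lie among the rest.

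Within EV alone the direction was the same as over both vectors, but no isotype passed. The 10 EV fold changes ran from 0.45 for Tuba1b to 1.72 for Tubb2b, with a median of 1.17 against 0 over all genes, and the edgeR adjusted p was 0.825 for each. The edgeR test called 0 of 24440 genes (0%) there, with 719 genes and 7 of the 10 isotypes at an unadjusted p under 0.05. DESeq2 called 14 genes higher and 16 lower, none of them among the 10. In 9 of the 10 isotypes, all but Tuba1b, both EV docetaxel libraries were above both EV media libraries, which held for 17.3% of all genes. Under IL27v the docetaxel and media libraries shared no library set, so docetaxel and set cannot be told apart. There 3 isotypes rose and none fell, against 2.7% of all genes higher and 0.0941% lower: Tubb2b by 2.41 ± 0.53, Tubb6 by 2.29 ± 0.45 and Tubb2a by 2.11 ± 0.50 (edgeR adjusted p = 0.0229, 0.0147 and 0.0334). Without IL27v media 1 these adjusted p-values were 0.201, 0.113 and 0.235. Leaving out IL27v docetaxel 1 ended the calls of Tubb6 (0.0587) and Tubb2a (0.0809), and leaving out IL27v docetaxel 2 those of Tubb2b (0.138) and Tubb2a (0.129). The difference between the docetaxel effects of the 2 vectors was itself tested and passed for none of the 10 by edgeR or DESeq2. By edgeR it passed for 0.0205% of all genes as higher and 0% as lower. The edgeR unadjusted p was under 0.05 for 0 isotypes and for 1505 of all genes. These differences ran from -0.43 to 0.94. The largest was that of Tubb6, 0.94 ± 0.61 (edgeR adjusted p = 0.871).

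The summed beta-tubulin level was 2573 and 2875 CPM in IL27v docetaxel, against 902.5 and 1859 CPM in IL27v media, and 2426 and 3319 CPM in EV docetaxel, against 1804 and 1408 CPM in EV media. Its log2 fold change over media was 0.91 ± 0.24 (edgeR adjusted p = 0.0604) and that of summed alpha-tubulin 0.50 ± 0.23 (edgeR adjusted p = 0.309). DESeq2 put summed beta past the threshold (0.93, adjusted p = 0.00335).

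**Figure D2:**
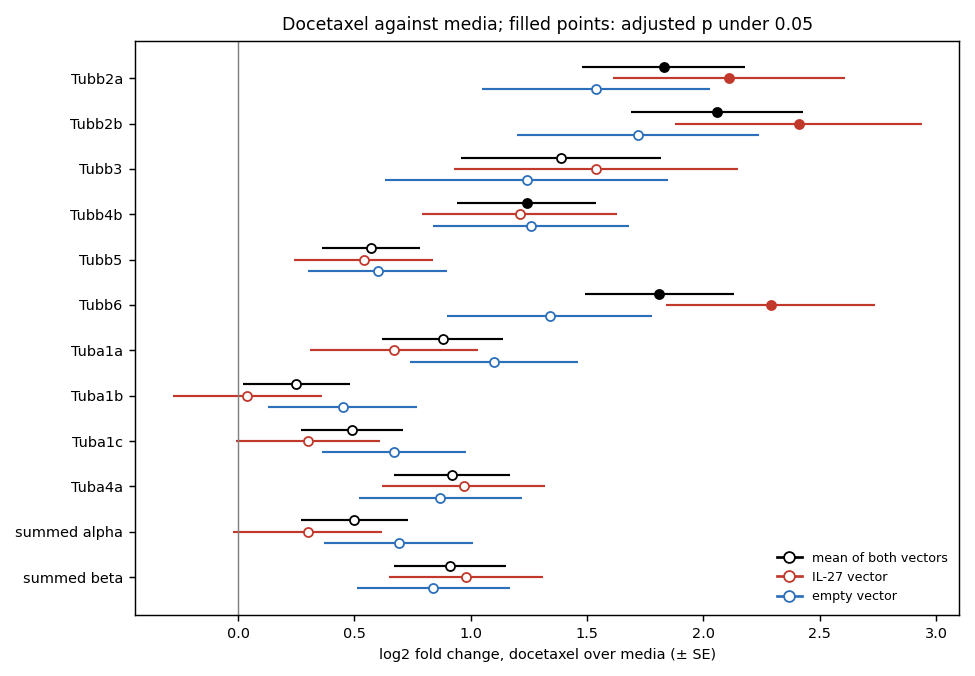
Log2 fold change of docetaxel over media (horizontal axis, ± SE) for each isotype and for the summed alpha and beta families, as the mean of both vectors (black), under IL27v (red) and under EV (blue); filled points passed an edgeR adjusted p of 0.05. Every isotype value is above 0, filled points are confined to Tubb2a, Tubb2b, Tubb4b and Tubb6, and none is filled under EV.

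Because the comparison with media turned on the media libraries, docetaxel was also set against the mean of the 5 other ex vivo conditions of the same vector. Averaged over both vectors, Tubb2b, Tubb2a and Tubb6 rose, at 1.69 ± 0.25, 1.55 ± 0.24 and 1.17 ± 0.22 (edgeR adjusted p = 0.00219, 0.00331 and 0.0133). That is 3 of 10 isotypes, against 1.08% of all genes higher and 0.0286% lower. Under IL27v 2 rose, against 1.98% of all genes, Tubb2b by 1.84 ± 0.36 and Tubb2a by 1.77 ± 0.34 (edgeR adjusted p = 0.00901 and 0.00908). These were lost without IL27v docetaxel 2 (0.298 and 0.147), and Tubb2a also without IL27v docetaxel 1. Under EV none passed by edgeR, against 0.0286% of all genes higher, while DESeq2 called 2. The edgeR unadjusted p there was under 0.05 for 5 isotypes and for 1807 of all 24440 genes. The difference between the vectors passed for 0 of 10, against 0.045% of all genes higher and 0.00409% lower (edgeR, 0 isotypes and 906 of all genes at an unadjusted p under 0.05). The 8 other processing settings run for this comparison kept the 3 calls over both vectors. The additive models, with or without the library sets as a term, ended the calls against media and were not run here. Leaving out each library in turn kept Tubb2b in all 23 fits and Tubb2a in all but the fit without EV docetaxel 2 (adjusted p = 0.0509). Tubb6 was lost without EV docetaxel 2 (adjusted p = 0.166), IL27v docetaxel 1 or IL27v docetaxel 2. Tubb4b did not pass against these conditions (0.69 ± 0.22, edgeR adjusted p = 0.182). The docetaxel libraries of both vectors were above all others of their vector for Tubb2a, Tubb2b and Tubb6 alone, 3 of 10, against 0.192% of all genes.

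The mix of isotypes differed between docetaxel and the other libraries. Per kilobase of transcript, Tubb6 made up 22.9 to 26.5% of the 6 beta isotypes in the 4 docetaxel libraries, against 8.31 to 21.5% in the 19 others. Tubb5, the most abundant beta isotype, made up 43.5 to 55.6% in docetaxel libraries, against 55.3 to 71.2% in the others. The share of Tubb2a averaged 5.05% in docetaxel and 2.48% in the other libraries, and that of Tubb2b 1.83% and 0.847%. Among the 4 alpha isotypes, Tuba1b made up 41.6 to 46.2% in docetaxel libraries, against 50.5 to 56.9% in all others, with no overlap. The share of Tuba1a averaged 31.9% in docetaxel and 25.3% in the other libraries, that of Tuba1c 21.4% and 20.3%, and that of Tuba4a 2.23% and 1.66%. These shares are descriptions and rest on the way reads were divided among near-identical transcripts, most of all for the alpha trio.

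**Figure D3:**
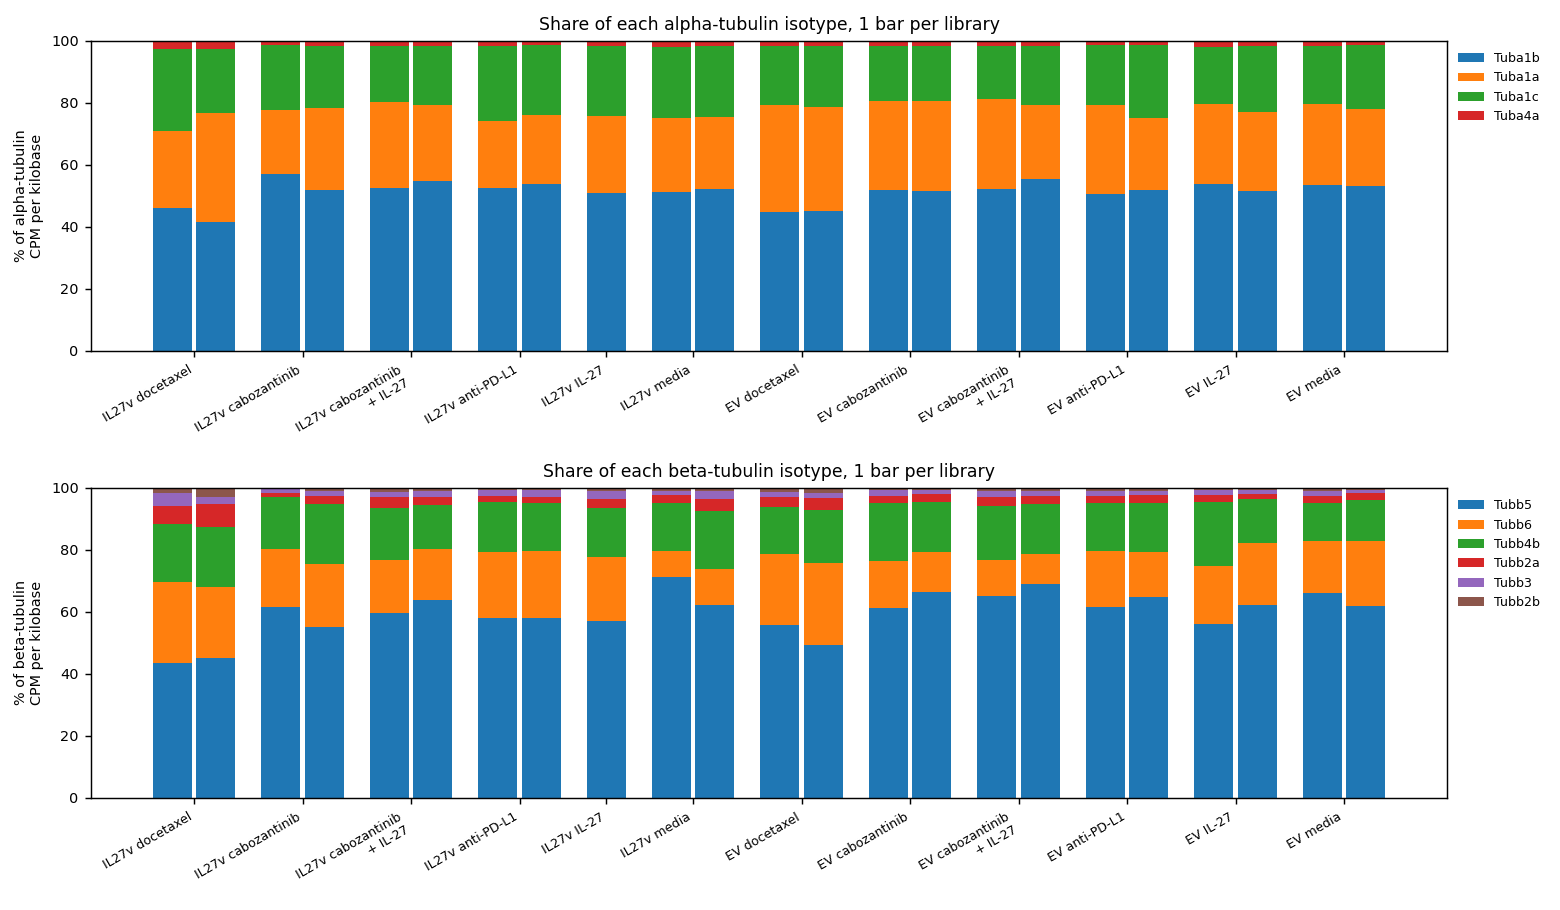
Share of each isotype in the summed CPM per kilobase of the alpha (top) and beta (bottom) families (vertical axes, percent), with 1 bar per library grouped by vector and exposure. The Tuba1b segment is shortest in the 4 docetaxel libraries, at 41.6 to 46.2%, and the Tubb6 segment is longest there, at 22.9 to 26.5%.

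None of the other exposures moved an isotype past the threshold when both vectors were averaged (edgeR). Against media, the median log2 fold change of the 10 isotypes was 0.69 for IL-27, 0.48 for anti-PD-L1, 0.29 for cabozantinib with IL-27 and 0.26 for cabozantinib. In that order 5, 3, 0 and 0 isotypes had an edgeR unadjusted p under 0.05. So had 2907, 1429, 1092 and 2570 of all 24440 genes. Over all genes, cabozantinib with IL-27 lowered 0.00409% and the other 3 exposures moved 0%. All 5 exposures share the same media libraries, so these values are not independent of each other or of docetaxel. For these 2 leading exposures Tubb6 had the highest value of the 10: 1.35 ± 0.34 for IL-27 (edgeR adjusted p = 0.196) and 1.03 ± 0.31 for anti-PD-L1 (edgeR adjusted p = 0.629). DESeq2 called 1 isotype for IL-27 and 0 for the other 3.

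Under IL27v, Tubb6 was at 266 and 371 CPM with cabozantinib, 313 and 310.5 CPM with cabozantinib and IL-27, 481.5 and 434 CPM with anti-PD-L1 and 498.5 CPM with IL-27, against 61.2 and 186 CPM in media. All of these libraries were above both media libraries, of which IL27v media 1 was the lowest of all libraries for Tubb6. The share of all genes with this pattern was not counted. The fold changes over IL27v media were 1.33 to 2.01, and none passed (lowest edgeR adjusted p = 0.0581, for anti-PD-L1). No other isotype passed there either, against 1.87% of all genes higher and 0.0123% lower with cabozantinib, 0.863% and 0.00409% with anti-PD-L1, and 0.896% and 0.00818% with cabozantinib and IL-27. Under EV, Tubb6 was at 161 and 105 CPM with cabozantinib and IL-27, below the 248 and 245 CPM of EV media (-0.89 ± 0.44, edgeR adjusted p = 1), where 0% of all genes passed as higher and 0.00409% as lower. The difference between the vectors in the effect of cabozantinib with IL-27 was 2.22 ± 0.62 and did not pass (edgeR adjusted p = 0.0939), against 1.43% of all genes higher and 0.0327% lower. For cabozantinib alone it was 1.52 ± 0.61 (edgeR adjusted p = 0.521), against 0.0205% of all genes higher.

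**Figure D4:**
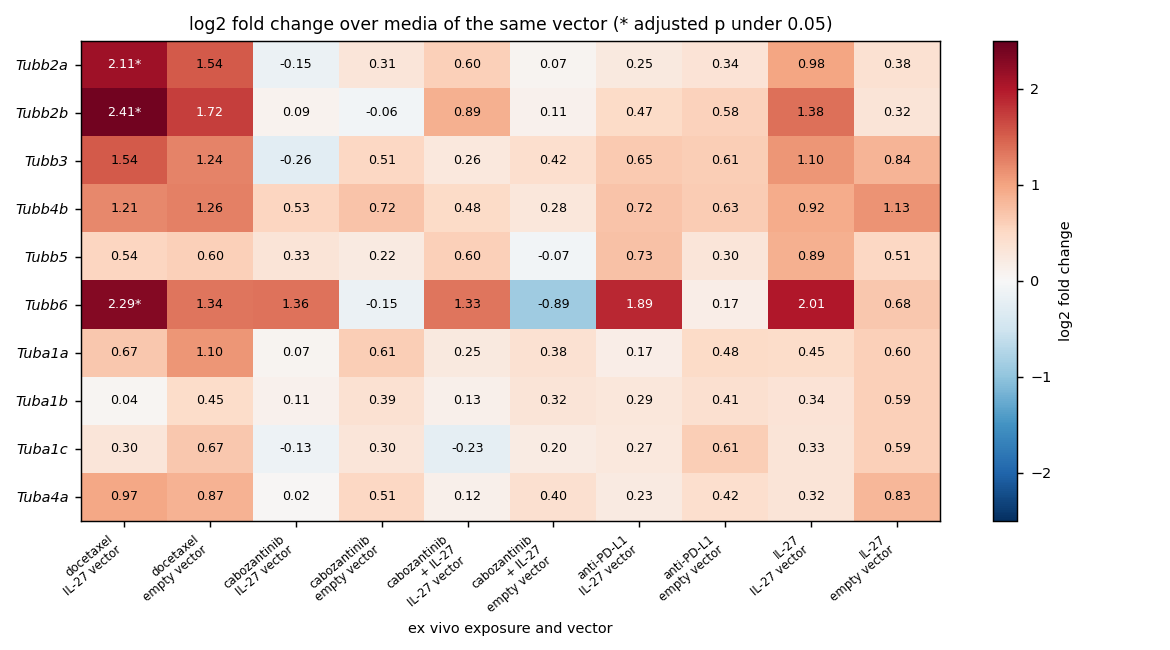
Log2 fold change over media of the same vector for each isotype (rows) and each ex vivo exposure under IL27v and EV (columns), printed in each cell and shaded from blue (lower) to red (higher); an asterisk marks an edgeR adjusted p under 0.05. The 3 asterisks stand in the IL27v docetaxel column, at Tubb2a (2.11), Tubb2b (2.41) and Tubb6 (2.29).

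Ordered by group mean, IL27v docetaxel was highest of the 12 groups for Tubb2a, Tubb2b, Tubb3, Tubb4b and Tuba4a, and EV docetaxel for Tubb6 and Tuba1a. The order of the leading groups for Tubb6 was EV docetaxel (625 ± 210 CPM), IL27v docetaxel (603 ± 10.8 CPM) and IL27v IL-27 (498.5 CPM, 1 library), and the first 2 do not differ beyond their spread (SD, n = 2 each). For Tubb2a it was IL27v docetaxel (107.0 ± 22.4 CPM), EV docetaxel (60.0 ± 22.3 CPM) and IL27v IL-27 (48.8 CPM). At the low end, IL27v media 1 was the lowest of the 23 libraries for 7 of the 10 isotypes. The IL-27 vector as such moved none past the threshold (mean over the 6 conditions, edgeR, 0 of 10 against 2.28% of all genes higher and 0.671% lower). Fold changes over EV ran from -0.21 for Tuba1a to 0.58 for Tubb3. The edgeR unadjusted p was under 0.05 for 2 isotypes and for 3538 of all 24440 genes. DESeq2 called none.

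Across the 23 libraries the 45 pairs of isotypes correlated at 0.29 to 0.95 (Pearson r of log2 CPM, a description, since all pairs share the same libraries and their depth), with a median of 0.74. Tubb2a and Tubb2b had the highest value and Tubb2b and Tuba1b the lowest. The genes whose pattern was most like the mean of the 10 standardised isotypes were Tubb4b-ps1, Spindoc, Hras, Ehd1, Traf4, Sgf29, Ccdc12, Cdipt, Marcksl1 and Qtrt1, at r of 0.84 to 0.89 over 23 libraries. Tubb4b-ps1 is a pseudogene that shares windows with Tubb4b. Of these 10, Marcksl1, which encodes an actin-binding protein, rose with docetaxel (1.28 ± 0.31, edgeR adjusted p = 0.0464). Among all genes 1.76% rose. The 10 were picked for likeness over these same docetaxel and media libraries, so their calls cannot be weighed against that share.

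Of the other tubulins listed, Tuba8 rose with docetaxel, 1 of the 6 tested, against 1.76% of all genes. Tubb1, Tuba3a, Tuba3b and Tubal3 had too few counts to test. The median of the 6 was -0.03, against 0 over all genes. Tuba8, an alpha isotype known from skeletal muscle, heart and testis, was at 23.2 and 31.9 CPM in IL27v docetaxel, against 0.921 and 1.598 CPM in IL27v media. In EV docetaxel it was at 1.32 and 4.08 CPM, against 0.449 to 0.485 CPM in EV media, and did not pass (2.52 ± 1.04, edgeR adjusted p = 0.825). The lower EV docetaxel library was below EV anti-PD-L1 2, at 1.35 CPM. All 19 libraries without docetaxel were at 3.16 CPM or less. Tuba8 was also higher under IL27v than EV over the 6 conditions (1.82 ± 0.42, edgeR adjusted p = 0.0274), against 2.28% of all genes. Set against media over both vectors, docetaxel gave the following for Tuba8. Its log2 fold change was 3.49 ± 0.76 (edgeR adjusted p = 0.0288), which was lost without EV media 1 (0.223), EV media 2 (0.135), EV docetaxel 2 (0.148), IL27v media 1 (0.156), IL27v docetaxel 1 (0.0933) or IL27v docetaxel 2 (0.0657). With the GC correction it was 3.26 ± 0.71, at an edgeR adjusted p of 0.0580. Against the 5 other conditions it was 3.11 ± 0.46 (edgeR adjusted p = 0.00233), a call kept without each library in turn. Gamma-tubulin Tubg1, which nucleates microtubules, had 0.45 ± 0.26 (edgeR adjusted p = 0.413).

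None of the 4 genes listed for tubulin autoregulation passed. Ttc5, the factor that recognises nascent tubulin, was at 16.2 and 20.6 CPM in IL27v docetaxel, against 18.4 and 22.4 CPM in IL27v media, and at 23.4 and 26.9 CPM in EV docetaxel, against 28.0 and 28.5 CPM in EV media (-0.16 ± 0.20, edgeR adjusted p = 0.767). Scaper, the adaptor to the deadenylase, had -1.04 ± 0.31 (edgeR adjusted p = 0.106), and Cnot1, the deadenylase scaffold, -0.61 ± 0.32 (edgeR adjusted p = 0.367). The list's median was -0.38.

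Of the 6 folding cofactors, which assemble alpha and beta chains into dimers, Tbcc rose (2.37 ± 0.43, edgeR adjusted p = 0.0134), against 1.76% of all genes. The median of the 6 was 0.51. Tbcc, which triggers release of the finished dimer, was at 17.3 and 6.99 CPM in IL27v docetaxel, against 1.09 and 1.76 CPM in IL27v media, and at 6.32 and 10.4 CPM in EV docetaxel, against 2.38 and 2.94 CPM in EV media. Its call was lost without EV media 1 (0.162), EV media 2 (0.0609), EV docetaxel 2 (0.0678), IL27v media 1 (0.0902) or IL27v docetaxel 1 (0.0841), and with the GC correction (1.23 ± 0.34, adjusted p = 0.136). Against the 5 other conditions it was 1.62 ± 0.29 (edgeR adjusted p = 0.0103), a call lost without EV docetaxel 2 or IL27v docetaxel 1 and with the GC correction. Tbcb, which binds alpha-tubulin, had 1.39 ± 0.39 (edgeR adjusted p = 0.0814). The 14 genes of the CCT chaperonin and prefoldin, which fold tubulin and actin chains, had a median of -0.05 and none passed.

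None of the 13 tubulin-modifying enzymes passed (median 0.09), among them Atat1, the alpha-tubulin acetyltransferase, at 0.69 ± 0.26 (edgeR adjusted p = 0.205). Of 17 microtubule-associated and plus-end proteins 2 rose, against 1.76% of all genes, with a median of -0.23. Map1s, a broadly expressed microtubule-binding protein, was at 86.5 and 56.1 CPM in IL27v docetaxel, against 3.69 and 5.48 CPM in IL27v media, and at 44.2 and 73.7 CPM in EV docetaxel, against 9.13 and 35.6 CPM in EV media (2.68 ± 0.44, edgeR adjusted p = 0.00814). The 7 other IL27v libraries, media aside, were at 42.4 to 89.8 CPM and overlapped IL27v docetaxel. That call was lost without EV media 1 (0.103), IL27v media 1 (0.0689) or IL27v docetaxel 1 (0.0505). It was 1.5 ± 0.30 with the GC correction (edgeR adjusted p = 0.0379) and 1.05 ± 0.58 with the library sets as a term (edgeR adjusted p = 0.805). Against the 5 other conditions it was 1.55 ± 0.29 (edgeR adjusted p = 0.0133), a call lost without EV docetaxel 2 or IL27v docetaxel 1 and with the GC correction. Map7d1, a relative of the kinesin-binding protein Map7, had 1.59 ± 0.34 (edgeR adjusted p = 0.0267), which was lost without any of EV media 1 (0.223), EV media 2 (0.0698), EV docetaxel 2 (0.161), IL27v media 1 (0.148), IL27v docetaxel 1 (0.0964) and IL27v docetaxel 2 (0.0573), and with the GC correction (0.41 ± 0.18, adjusted p = 0.412). It did not pass against the 5 other conditions (0.96 ± 0.24, edgeR adjusted p = 0.0714).

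The 10 stathmins and severing enzymes, which sequester dimers or cut microtubules, had a median of -0.54 and none passed. None of 8 tested genes of taxane transport and metabolism passed on average (median 0.26). Under IL27v 1 of the 8 rose, against 2.7% of all genes. This was Abcc10, an exporter for which taxanes are substrates (2.90 ± 0.68, edgeR adjusted p = 0.0307). It was at 4.94 and 4.30 CPM in IL27v docetaxel, against 0.416 and 0.821 CPM in IL27v media. The 7 other IL27v libraries, media aside, were at 4.72 to 8.25 CPM, and against the 5 other conditions the change under IL27v was 0.40 ± 0.48 (edgeR adjusted p = 0.904). The call against media was lost without IL27v media 1 (0.262), IL27v docetaxel 1 (0.124) or IL27v docetaxel 2 (0.0651), with the GC correction (1.96, adjusted p = 0.0969) and with docetaxel and media libraries only (0.0687). All 8 other cytoskeletal genes had fold changes above 0, with a median of 0.73, and 1 of them passed, against 1.76% of all genes higher. Of these Lmna, the nuclear lamin A/C gene, rose (2.23 ± 0.46, edgeR adjusted p = 0.0239), a call lost without EV media 1 (0.210), EV media 2 (0.0751), EV docetaxel 2 (0.115), IL27v media 1 (0.113) or IL27v docetaxel 1 (0.0901). Lmna was at 526 and 571 CPM in IL27v docetaxel, against 21.9 and 92.8 CPM in IL27v media, and at 499 and 871 CPM in EV docetaxel, against 215 and 383 CPM in EV media. The 7 other IL27v libraries, media aside, were at 447 to 661 CPM and overlapped IL27v docetaxel, and against the 5 other conditions Lmna did not pass (1.13 ± 0.32, edgeR adjusted p = 0.121). Actb, cytoplasmic beta-actin, had 0.71 ± 0.19 over media (edgeR adjusted p = 0.0741). With only the docetaxel and media libraries in the fit, the edgeR adjusted p over media was 0.0563 for Tbcc, 0.0554 for Map1s, 0.0776 for Map7d1 and 0.0729 for Lmna.

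The 5 keratinocyte markers summed to 2779 and 2468 CPM in IL27v docetaxel, against 16.3 and 1.33 CPM in IL27v media and at most 551 CPM in the other IL27v libraries. Over both vectors 2 of the 5 rose with docetaxel, against 1.76% of all genes. In EV docetaxel the keratinocyte markers summed to 2.30 and 5.02 CPM, against 1.94 and 5.29 CPM in EV media. The 5 neutrophil markers summed to 222 and 240 CPM in IL27v docetaxel, against 51.8 and 44.8 CPM in IL27v media, and to 0 and 0.0663 CPM in EV docetaxel, against 0.739 and 0.116 CPM in EV media. The higher sum in IL27v docetaxel was S100a8, at 67.8 and 78.3 CPM, against 4.92 and 5.45 CPM in IL27v media, and S100a9, at 154 and 162 CPM, against 14.1 and 10.96 CPM in IL27v media. The granule genes went the other way: Ngp was at 0 CPM in both IL27v docetaxel libraries, against 18.8 and 16.7 CPM in IL27v media, and Ltf at 0 and 0.0800 CPM, against 13.5 and 10.8 CPM in IL27v media. Camp was under 1 CPM in all of them. Averaged over both vectors, 0 of the 5 had a positive fold change. The 6 proliferation markers summed to 729 and 830 CPM in IL27v docetaxel, against 1620 and 1059 CPM in IL27v media, and to 1052 and 717 CPM in EV docetaxel, against 1215 and 1200 CPM in EV media. The 7 neuronal markers, of interest because Tubb2a, Tubb2b and Tubb3 are rich in neurons, summed to 14.1 and 38.8 CPM in IL27v docetaxel, against 42.7 and 43.9 CPM in IL27v media, and to 35.5 and 68.3 CPM in EV docetaxel, against 58.8 and 34.8 CPM in EV media. Averaged over both vectors none of the 7 passed the threshold, against 1.76% of all genes higher and 0.0286% lower. Only 1 of the 7 had a fold change above 0. Mitochondrially encoded RNA (6 genes), a measure of RNA quality, summed to 23400 and 17060 CPM in IL27v docetaxel, against 27960 and 34660 CPM in IL27v media, and to 21820 and 20770 CPM in EV docetaxel, against 17460 and 17470 CPM in EV media. It was thus lower with docetaxel under IL27v and higher under EV, without overlap under either vector. The part of these cells and of RNA quality in the isotypes' values was not tested.

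The slope of expression on GC content also moved with the isotypes. Transcripts of the 10 have 51.2 to 57.9% GC, against a median of 49.0% over all genes tested. The slope (log2 units over the full range from no GC to all GC) was 2.17 and 2.51 in IL27v docetaxel, against -7.99 and -2.95 in IL27v media, and -0.54 and 4.36 in EV docetaxel, against -1.45 and -2.06 in EV media. Across the 23 libraries it correlated with the mean of the standardised isotypes at a Pearson r of 0.75 (0.68 over 11 IL27v and 0.82 over 12 EV libraries), as a description. With each library's GC trend removed, the changes of Tubb2b, Tubb2a and Tubb6 over media were 2.00, 1.45 and 1.27 (edgeR adjusted p = 0.0154, 0.0182 and 0.0131). Each passed and was smaller than without the correction, and Tubb4b no longer passed. Fewer of all genes rose with the correction than without it, as given in the closing section. The part of GC content in the isotypes' values was not tested.

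Promoter sequence was available for 8 of the 10 isotypes, from RefSeq (GRCm38.p6), as 250 bases before to 50 after the start. The 2 called isotypes with a promoter, Tubb2a (chr13:34077959-34078258, minus strand) and Tubb4b (chr2:25224653-25224952, minus strand), are shown with Tuba1b (chr15:98934341-98934640, minus strand), whose level overlapped between docetaxel and media. Capitals mark 3 motifs on either strand, the box CCAAT, the GC box with the letters GGGCGG and the TATA box with the letters TATAAA, whose matches do not overlap in these promoters.
Tubb2a: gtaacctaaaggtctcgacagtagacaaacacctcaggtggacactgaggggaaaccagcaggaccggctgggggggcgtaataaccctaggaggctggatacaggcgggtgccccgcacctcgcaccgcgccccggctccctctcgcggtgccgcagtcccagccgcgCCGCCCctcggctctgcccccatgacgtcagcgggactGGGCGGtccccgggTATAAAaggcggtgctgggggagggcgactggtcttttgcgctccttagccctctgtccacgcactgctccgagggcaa
Tubb4b: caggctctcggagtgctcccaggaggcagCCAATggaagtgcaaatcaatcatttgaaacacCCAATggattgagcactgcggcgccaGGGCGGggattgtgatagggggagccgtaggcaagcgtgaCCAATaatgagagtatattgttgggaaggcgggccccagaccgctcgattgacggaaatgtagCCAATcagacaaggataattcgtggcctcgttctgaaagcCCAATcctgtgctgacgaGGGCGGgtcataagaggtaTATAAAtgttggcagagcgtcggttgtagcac
Tuba1b: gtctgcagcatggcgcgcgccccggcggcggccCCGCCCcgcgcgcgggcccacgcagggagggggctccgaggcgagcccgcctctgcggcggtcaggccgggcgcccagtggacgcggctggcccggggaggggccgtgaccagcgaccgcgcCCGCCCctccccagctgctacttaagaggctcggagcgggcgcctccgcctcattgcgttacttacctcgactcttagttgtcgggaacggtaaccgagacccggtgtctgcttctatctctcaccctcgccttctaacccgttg
TATAAA was found in Tubb2a and Tubb4b, 2 of 8 isotype promoters, and in 13.6% of 32851 promoters of the same length. GGGCGG was found in 7 of 8, all but Tuba1c, and in 35.7% of all promoters. CCAAT was found in 5 of 8 and in 37.4% of all promoters, and Tubb4b held 5 copies. A match describes the letters and is not evidence of a bound factor.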

How the data were processed

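A single table holds the estimated counts that the authors deposited, by gene, for 23 bulk libraries. The labels' protocols describe stranded poly(A) libraries, RNA integrity of at least 8 and paired-end sequencing. The tools listed, per the submitters' processing notes, are DESeq2, StringTie, HISAT2 and cutadapt, with GRCm38 as the build; their versions and the counting step are not stated there. Deposited counts were whole, so rounding changed nothing, but 143 genes hold the same nonzero value in every library, and 31.7 to 35.3% of counts from 1 to 40 are multiples of 4.

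Titles gave the groups, since several sample descriptions carry the same library name. Symbols, coordinates and coding sequences came from GENCODE on GRCm38 (55141 identifiers with a symbol), and promoters from RefSeq. In R 4.3.3, edgeR 4.0.16 (TMM, filterByExpr, quasi-likelihood test) fitted all 23 libraries in a model of 12 groups on 24440 genes, with 11 residual degrees of freedom. The calling threshold was 0.05 on the p adjusted by Benjamini and Hochberg's method. Standard errors are the size of the log2 fold change over √F. The 2 family sums joined the same fit, adjusted with the sums in place of the isotypes. DESeq2 1.42.0 was an alternative, as were other scalings, filters, designs, a GC correction and leaving out each library. The fits were checked on simulated data.

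The isotypes, 9 gene lists and 13 marker lists were chosen with earlier results of these data known. All isotypes are named, list genes past the threshold in a docetaxel comparison, otherwise up to 4 per list with the smallest p, and the 10 genes most like the isotypes (mean of at least 1 CPM). Replicate numbers did not pair the samples (55 group pairs, r -0.35 to 0.30, 8 over 0.1).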

Additional observations from a re-analysis of the deposited data

How the results depend on the processing

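Of 2252 values recomputed under alternatives, 2016 kept their direction and side of the threshold, or a count within 1.5 times. The count of isotypes that rose with docetaxel over both vectors (4) was 7 with DESeq2 and 7 with no filter on low counts. It was 0 with docetaxel and media libraries only, with an additive model, with the additive model and library sets (in both placings of IL27v docetaxel 1), and without IL27v docetaxel 1 and IL27v media 1; it was 0 to 8 with 1 library left out. The last pair and the second placing were chosen after seeing the data. Under IL27v (3) it was 5 with no filter, 0 with docetaxel and media libraries only, 0 without those 2 libraries, and 0 to 5 with 1 left out. Against the 5 other conditions it was 5 with no filter over both vectors (3; 1 to 5 with 1 left out), 4 under IL27v (2; 0 to 4), and under EV (0) 2 with DESeq2, 3 with no filter and 0 to 1. No filter gave 1 for the vector, 1 for anti-PD-L1 (0 to 1 with 1 left out) and 2 for IL-27 (0 to 4), for which DESeq2 gave 1. Over all genes 430 rose with docetaxel over both vectors, 1406 with DESeq2, 1401 with no filter, 63 with docetaxel and media libraries only, 97 with the GC correction, 27 without those 2 libraries, 0 with the additive models, and 0 to 1229 with 1 left out. The cause was not tested. Summed beta passed over both vectors with DESeq2 (0.93), no filter (0.89), 1 CPM required in 4 libraries (0.94) and counts divided by 4 (0.92), with 0.68 to 1.22 when 1 library was left out. Under IL27v it passed with DESeq2 (1.03), with 0.62 to 1.59.

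These values changed sign. With the GC correction Tuba1b and Tuba1c had -0.17 and -0.05 over both vectors and -0.50 and -0.41 under IL27v, summed alpha -0.18 under IL27v, and Abcc10 -0.18 under EV. Against the 5 other conditions Tuba1b had -0.01 over both vectors and -0.13 under IL27v. Without IL27v docetaxel 1 and IL27v media 1 Tuba1b had -0.19 and Tuba1c -0.01 under IL27v. With 1 library left out Tuba1b under IL27v had -0.23 (without IL27v media 1) to 0.48, and -0.01 without IL27v docetaxel 2. Abcc10 under EV had -0.48 without EV media 1 and -0.04 without EV docetaxel 2.

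With the replicate number as a block, 3 isotypes rose over both vectors, Tubb4b being lost (1.23, adjusted p = 0.0674). Tuba8 lost its call under IL27v (4.44, adjusted p = 0.0591). Whether the replicate numbers pair the samples is not known. The lowest isotype level was 5.95 CPM, of Tubb2b, at 36.3 counts or more per CPM.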
